A study of Homo sapiens with 38 samples.

Results

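Nuclear RNA of HCT116 cells that lack AGO1, AGO2 and AGO3 was compared with that of unedited HCT116 cells. HCT116 was derived from a human colorectal carcinoma. Members were chosen by their titles as the 3 nuclear AGO1/2/3 knockout samples (cell passages 11, 12 and 14) and the 3 nuclear wild-type samples (passages 27, 28 and 29), which are 6 of the 38 samples of the series and 6 of its 30 RNA-seq samples. Argonaute proteins hold a microRNA and use its seed to find partly matching messenger RNAs, which are then repressed through TNRC6 proteins and the CCR4-NOT deadenylase. They are best known for this work in the cytoplasm, and they are also found in nuclei. The wider series asked what Argonaute does in the nucleus, and the comparison here asks which nuclear RNAs differ when the 3 genes are knocked out together.

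Each genotype was 1 edited line sampled at different passages, so clone, passage number and the loss of Argonaute cannot be told apart. The p-values measure spread between passages within a line, pooled over all lines of a fit (15 nuclear samples in the main one). They do not measure spread between lines of 1 genotype. The wild-type line carried no knockout. Nuclei were purified with hypotonic detergent washes to remove endoplasmic reticulum, and total RNA was depleted of ribosomal RNA before sequencing. In bulk samples like these, fewer cells of a type and less RNA per cell cannot be told apart.

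The wild-type nuclear samples held 20431557 to 26536692 estimated reads and the knockout samples 41594380 to 45762437, so wild-type values carry more counting error. Levels are given in CPM, read counts scaled to the effective library size and a common total, and differences as log2 fold changes of knockout against wild type with their standard error (SE). Wild-type passage 29 stood apart: over 10332 genes, the SD of the log2 difference was 0.36 between it and each other wild-type sample, 0.14 between passages 27 and 28, and 0.14 to 0.15 among the knockout samples. Of 12 colon epithelial markers 7 passed the filter on low counts, with KRT8 at 872 to 2456 CPM and EPCAM at 105 to 146 CPM over all 6 samples, while CDX1 had no read in any and CDH17, VIL1, GPA33 and LGALS4 had at most 4 reads in each. Of the fibroblast markers DCN, LUM and POSTN had no read in any of the 6 samples, but COL1A1 read 14.4 to 21.3 CPM. Of the blood markers PTPRC, CD3E, MS4A1 and HBB had no read, but CD68 read 0.669 to 2.11 CPM in wild type and 5.40 to 7.61 CPM in knockout, and HBA1 0 to 0.502 CPM and 1.31 to 3.53 CPM. The blood list summed to 0.951 to 2.47 CPM in wild type and 6.99 to 11.2 CPM in knockout. The part of these markers in the results was not tested.

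The 4 Argonaute genes came first. AGO1 (chr1:35869808-35930532, GRCh38) read 156, 155 and 130 CPM in wild type and 45.8, 45.6 and 44.1 CPM in knockout, a log2 fold change of -1.71 ± 0.07 (SE; adjusted p = 7.7e-11). AGO2 (chr8:140520156-140635633), the Argonaute that can cut its target, read 535, 498 and 455 CPM against 368.5, 370.2 and 354.3 CPM (-0.44 ± 0.08, adjusted p = 0.00016). AGO3 (chr1:35930718-36072500) read 174, 188 and 160 CPM against 144, 138 and 141 CPM (-0.30 ± 0.06, adjusted p = 0.00059). The 2 groups did not overlap for any of these 3 genes, and the mean of AGO2 went from 496 to 364 CPM and that of AGO3 from 174 to 141 CPM. The log2(TPM + 1) scale accounts for transcript length but lacks the scaling of CPM to the effective library size. On it AGO2 changed more (-0.99) and AGO3 by -0.44, beside -1.74 for AGO1.

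The fourth gene, AGO4 (chr1:35808016-35857890), was not targeted. It read 15.0, 16.5 and 18.7 CPM in wild type and 22.6, 19.9 and 22.6 CPM in knockout (0.38 ± 0.13, adjusted p = 0.021), a call that was lost without wild-type passage 27 (adjusted p = 0.059) or without knockout passage 11 (0.058) or 14 (0.061). Reads of an edited gene that lie outside the edit remain countable, so RNA levels do not check the loss of the proteins. The AGO3 call was lost on length-scaled counts (adjusted p = 0.07).

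**Figure D1:**
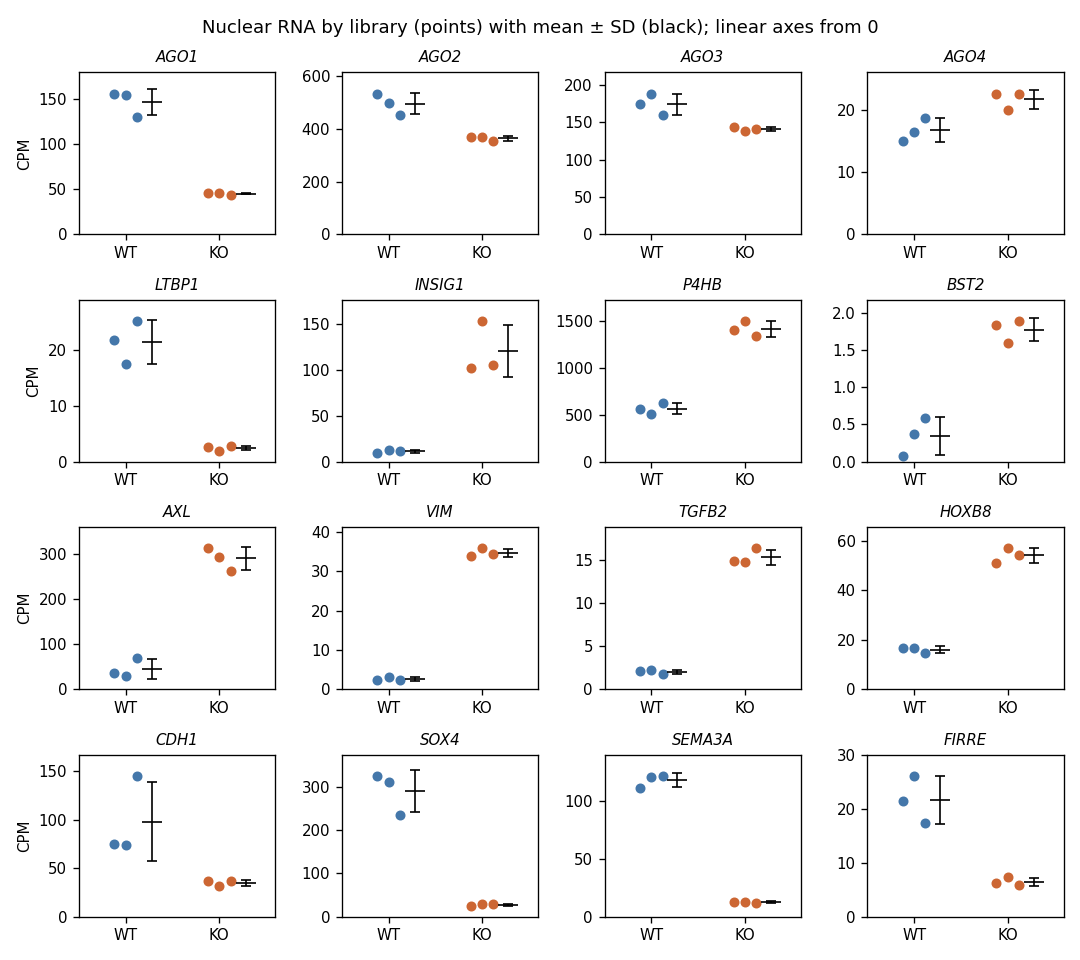
Nuclear level (CPM, linear axes from 0) of 16 genes in each of 3 wild-type (WT, blue) and 3 AGO1/2/3 knockout (KO, orange) samples, with the mean ± SD in black. The groups are separate for all 16 genes, as for 61% of all genes tested. The rule for naming genes required this of all but the Argonaute genes. AGO1 falls from 130 to 156 CPM to 44.1 to 45.8 CPM, by a larger factor than AGO2 and AGO3.

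Of 18919 genes tested, 5504 were higher and 5579 lower in the knockout nuclei, so 58.6% of genes were called (29.1% higher, 29.5% lower), and a call alone says little about any gene. In 61% of genes the 3 knockout values did not overlap the 3 wild-type values. The calls differed by the kind of RNA. Among 13594 protein-coding genes, 5239 rose (38.5%) and 3277 fell (24.1%), with a median log2 fold change of 0.12. The counts of the lists of coding genes below stand beside these shares. Among 3227 long noncoding RNA genes, 162 rose and 1356 fell (median -0.53). On the log2(TPM + 1) scale the protein-coding split turned, with 2534 higher and 4587 lower (median -0.09), and of the long noncoding genes 110 were higher and 1717 lower (median -0.29).

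The other noncoding classes leaned the same way. Of 42 small nuclear RNA genes 29 fell and 1 rose (median -0.93), of 1007 processed pseudogenes 450 fell and 60 rose (-0.71), and of 338 unconfirmed transcripts (the TEC class) 187 fell and 12 rose (-0.71). Small nuclear RNA genes and pseudogenes share sequence with near-identical copies, so their reads are uncertain. Without wild-type passage 29, 1262 long noncoding genes fell and 207 rose. The share of all reads on long noncoding genes was 3.74%, 4.02% and 4.60% in wild type and 2.25%, 2.11% and 1.93% in knockout. All 3 knockout values lay below all 3 wild-type values (exact two-sided permutation test, p = 0.1, the smallest that 3 against 3 can give).

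The calls also followed where a transcript is normally found. Genes were put in 5 equal classes by their nucleus-to-cytoplasm ratio in the AGO1 knockout line. Its samples are in neither of the 2 groups compared, but its nuclear samples enter the filter, scaling and estimate of spread of the fit. This split was chosen after the values were seen. In the most cytoplasmic class (2931 genes) 1957 rose and 171 fell, with a median of 0.41. In the most nuclear class (2931 genes) 104 rose and 2040 fell, with a median of -0.62. The 3 classes between them had medians of 0.25, 0.09 and -0.17, a steady decline.

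Each knockout sample showed this decline. Medians of the most nuclear class were -0.48, -0.54 and -0.63 in knockout passages 11, 12 and 14, on a scale of log2(CPM + 0.5) against the wild-type mean. They were -0.02 to 0.04 in the wild-type samples, which make up that mean and so lie near 0 by construction. The cytoplasmic RNA of the same genotypes showed little of this decline, with medians of 0.09 in the most cytoplasmic and -0.05 in the most nuclear class. Mitochondrially encoded RNA took 0.537%, 0.355% and 0.371% of nuclear reads in wild type and 0.367%, 0.287% and 0.295% in knockout (exact permutation test, p = 0.2). The part of nuclear purity in the gene lists below was not tested.

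**Figure D2:**
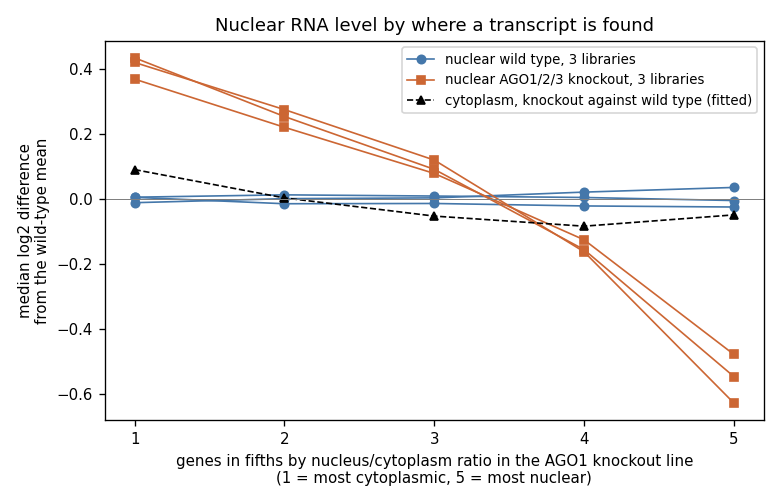
Median log2 difference from the wild-type mean (y axis) for genes in 5 equal classes by nucleus-to-cytoplasm ratio in the AGO1 knockout line (x axis, 1 most cytoplasmic, 5 most nuclear). The 3 nuclear knockout samples (orange) run from about 0.4 in the first class to between -0.48 and -0.63 in the last, the 3 wild-type samples (blue) stay near 0, and the cytoplasmic fold change (black) stays between -0.08 and 0.09.

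Most of the listed nuclear long noncoding RNAs fell. Of 16 tested, 12 fell (75%) and none rose, and without wild-type passage 29 the count was 11. The median was -0.54, against -0.03 over all genes but -0.53 over all long noncoding genes, of which 42.0% fell. By the ratio in the AGO1 knockout line, 10 of the 16 lay in the most nuclear class, where 69.6% of genes fell (median -0.62). MALAT1, a very abundant RNA of nuclear speckles, read 13320, 14910 and 19650 CPM in wild type and 8678, 8665 and 7390 CPM in knockout (-0.95 ± 0.12, adjusted p = 8.9e-06). NEAT1, the RNA around which paraspeckles form, read 573, 576 and 1145 CPM against 502, 450 and 450 CPM (-0.71 ± 0.21, adjusted p = 0.0094). Wild-type passage 29 alone held the value of 1145 CPM.

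FIRRE, an X-linked RNA that stays at chromatin, changed most in the list. It read 21.5, 26.1 and 17.3 CPM in wild type and 6.28, 7.24 and 5.83 CPM in knockout (-1.75 ± 0.13, adjusted p = 3.2e-08). In the cytoplasm MALAT1 and NEAT1 were at 0.33 (adjusted p = 0.18) and 0.22 (adjusted p = 0.5), and 2 of the 16 were higher and 1 lower there.

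Host transcripts of microRNAs showed the same pattern. Of 20 tested long noncoding hosts, 11 fell and 2 rose, with a median of -0.61, beside -0.53 over all long noncoding genes. Of the 17 hosts with a ratio, 13 lay in the most nuclear class. MIR181A1HG read 19.1, 19.1 and 25.3 CPM against 7.97, 7.27 and 6.53 CPM (-1.54 ± 0.13, adjusted p = 1.5e-07). MIR924HG read 8.70, 9.49 and 7.24 CPM against 4.57, 3.95 and 3.75 CPM (-1.05 ± 0.14, adjusted p = 1.1e-05). MIR17HG, which carries the miR-17 to miR-92 cluster, fell by 0.91 on the log2 scale.

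H19, host of miR-675, went the other way. It read 3.17, 2.22 and 2.65 CPM in wild type and 8.56, 6.17 and 6.21 CPM in knockout (1.38 ± 0.16, adjusted p = 3.9e-06), and was as high in the cytoplasm (1.42). In the cytoplasm 5 of the 20 hosts were higher and 1 lower (median 0.17), and for 8 of the 20 the nuclear difference was lower than the cytoplasmic one by the interaction test, which called 6.64% of all genes in that direction.

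Among lists with at least 10 tested genes, cholesterol synthesis had the highest median. Cells make cholesterol from acetyl-CoA through a chain of enzymes, and the SREBP transcription factors switch on these enzymes when sterols run low. All 26 genes of the list were higher in the knockout nuclei (median 1.57), and 24 to 26 were called higher under every alternative, with 26 when wild-type passage 29 was left out. In the cytoplasm 24 of 26 were higher and none lower (median 1.03), beside 16.2% of all genes called higher there.

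INSIG1, which holds SREBP back in the endoplasmic reticulum and is itself an SREBP target, read 9.05, 12.3 and 12.1 CPM in wild type and 102, 153 and 105 CPM in knockout (3.44 ± 0.23, adjusted p = 9.0e-09). Every knockout sample lay above every wild-type sample, which the rule for naming genes required.

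The enzymes rose as well. HMGCS1, which makes HMG-CoA at the start of the pathway, read 46.6, 54.5 and 47.1 CPM against 144, 243 and 205 CPM (1.997 ± 0.191), and SREBF2, the gene of the main SREBP for cholesterol, rose by 1.47 ± 0.18. SCD and FASN, which desaturate and build fatty acids, rose by 3.16 ± 0.33 and 1.64 ± 0.18. SCD reached 3995 to 5987 CPM from 488 to 675 CPM. PMVK rose least (0.39) and was at -0.02 in the cytoplasm. For 12 of the 26 the nuclear difference was the larger one by the interaction test, which called 10.3% of all genes in that direction. SCD, HMGCS1, SREBF2 and FASN were chosen for naming after their values were seen.

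**Figure D3:**
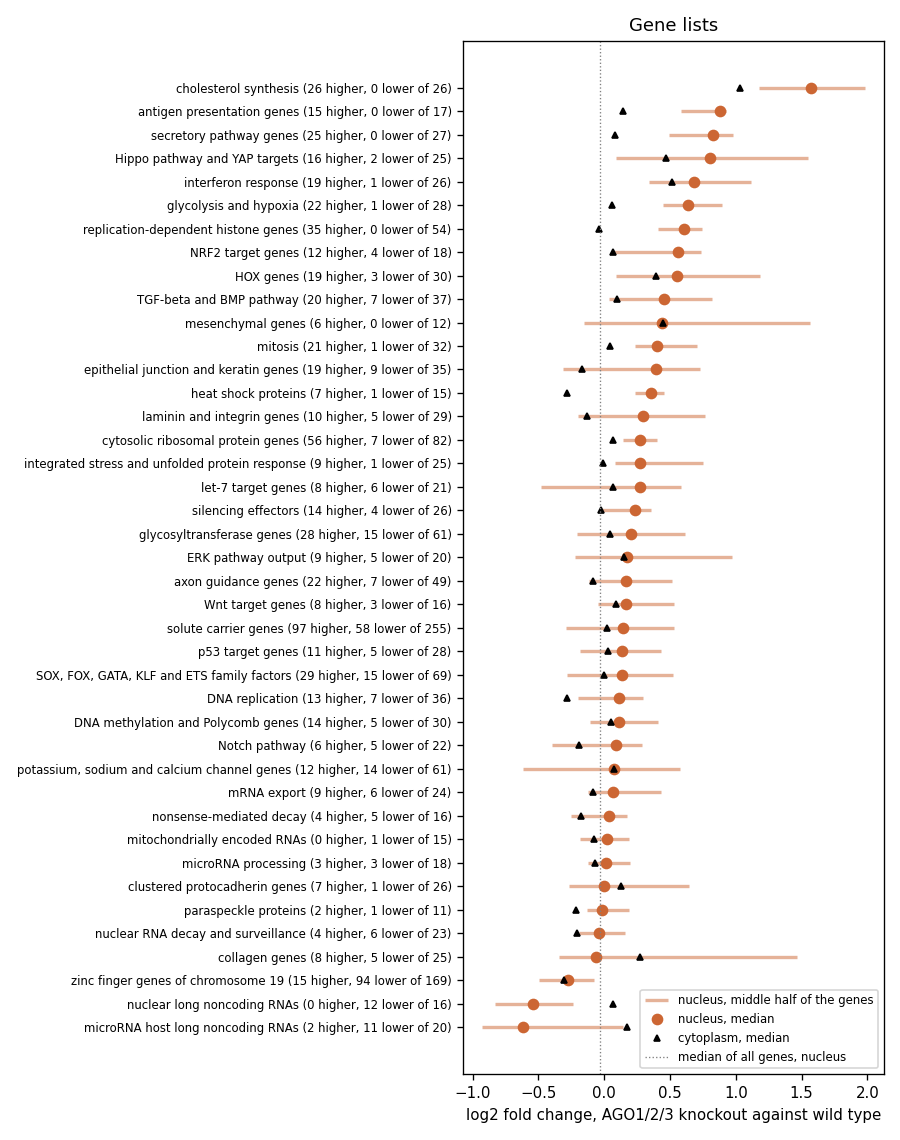
Median log2 fold change, AGO1/2/3 knockout against wild type, of each gene list with at least 10 tested genes, in nuclei (orange, with a bar from the lower to the upper quartile of its genes) and cytoplasm (black), and the nuclear median of all genes (dotted). Cholesterol synthesis lies highest at 1.57 in nuclei and 1.03 in cytoplasm, and the 2 long noncoding lists lie lowest in nuclei but above 0 in cytoplasm.

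Genes of the secretory pathway, whose messenger RNAs are mostly translated at the endoplasmic reticulum, rose in nuclei and hardly in cytoplasm. Of 27 tested, 25 rose and none fell in nuclei (median 0.83), and 3 rose and 1 fell in cytoplasm (median 0.08). For 22 of 27 the nuclear difference was higher by the interaction test. P4HB, a protein disulfide isomerase, read 558, 509 and 625 CPM against 1405, 1499 and 1337 CPM (1.33 ± 0.07, adjusted p = 1.7e-09) and differed by 0.48 in cytoplasm. CALR, the chaperone calreticulin, read 575, 499 and 454 CPM against 1190, 1203 and 1057 CPM (1.18 ± 0.08, adjusted p = 1.8e-08) and was at 0.17 in cytoplasm.

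These genes took 0.562%, 0.542% and 0.558% of all nuclear reads in wild type and 0.899%, 0.939% and 0.832% in knockout (exact permutation test, p = 0.1). In the AGO1 knockout line 11 of the 27 lay in the most cytoplasmic class and none in the most nuclear one. Whether more of the endoplasmic reticulum stayed on the knockout nuclei was not tested.

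Antigen presentation genes shared that shape. Of 17 tested, 15 rose and none fell (median 0.88), while 4 rose and none fell in cytoplasm (median 0.14). Of the 16 with a ratio in the AGO1 knockout line, 9 lay in the most cytoplasmic class, where 66.8% of genes rose. In the most nuclear class lay 1 of them. TAPBP, which loads peptides onto MHC class I, read 51.1, 52.0 and 50.7 CPM against 153, 156 and 146 CPM (1.56 ± 0.07, adjusted p = 2.8e-10) and rose in cytoplasm as well (0.94). B2M, the light chain of MHC class I, rose by 0.89 in nuclei and by 0.46 in cytoplasm.

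Among genes of the unfolded protein and integrated stress responses, 9 of 25 rose (36%) and 1 fell (4%), with a median of 0.27. Over all coding genes 38.5% rose and 24.1% fell. When wild-type passage 29 was left out, 22 of the stress genes rose and 1 fell. HSP90B1 and DNAJC3, chaperones of the endoplasmic reticulum, rose by 0.98 and 0.96 and were at 0.11 and 0.27 in cytoplasm. EDEM1, which sends misfolded glycoproteins to degradation, fell by 0.53. Of 15 heat shock protein genes 7 rose and 1 fell, led by HSPB1 at 1.36 ± 0.09 (115 to 294 CPM as group means).

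Interferon response genes were mostly higher in both fractions. Interferon-stimulated genes are induced when cells sense foreign nucleic acid, among other signals. Of 26 tested, 19 rose and 1 fell in nuclei (median 0.68), and 14 rose and 2 fell in cytoplasm (median 0.51). IFIT1, which binds foreign 5′ ends, read 3.56, 2.89 and 2.11 CPM against 10.8, 10.6 and 12.4 CPM (1.97 ± 0.23, adjusted p = 3.6e-06) and rose by 1.30 in cytoplasm. BST2, or tetherin, read 0.07, 0.376 and 0.584 CPM against 1.83, 1.59 and 1.89 CPM (2.42 ± 0.45, adjusted p = 0.00026).

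The levels stayed modest. IFIT2 and IFIT3 rose by 1.71 and 1.68 and OAS1 by 1.497. IFIH1, the double-stranded RNA sensor MDA5, was the 1 that fell, from 0.845, 1.25 and 1.12 CPM to 0.499, 0.575 and 0.513 CPM (-1.01 ± 0.23, adjusted p = 0.0014). The IFIT2, IFIT3 and OAS1 values were picked out after they were seen.

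The Hippo pathway restrains YAP, a coactivator of growth genes. Of 25 genes tested 16 rose and 2 fell (median 0.80), and in cytoplasm 17 rose and 2 fell (median 0.47). AXL, a receptor tyrosine kinase, read 34.8, 29.6 and 69.4 CPM against 313, 295 and 264 CPM (2.71 ± 0.25, adjusted p = 2.3e-07). CCN2, a matricellular protein, read 2.32, 1.59 and 4.58 CPM against 12.5, 11.1 and 10.96 CPM (2.04 ± 0.30, adjusted p = 3.0e-05). YAP1 itself was at 0.04 and did not pass the test, and its relative WWTR1 (TAZ) rose by 1.27. STK3, a Hippo kinase encoded on chromosome 8, fell by 0.57, and the cofactor TEAD2 fell by 0.45.

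TGF-beta and BMP signalling genes changed in both directions. Of 37 tested, 20 rose and 7 fell (median 0.46). Among ligands, TGFB2 read 2.08, 2.17 and 1.71 CPM against 14.8, 14.8 and 16.4 CPM (chr1:218345336-218444619; 2.94 ± 0.16, adjusted p = 1.3e-09), and INHBB, an activin subunit, rose by 2.30 ± 0.23. BMP2 read 0.387, 0.335 and 0.27 CPM in wild type and had no read in any knockout sample. Both TGFB2 and INHBB rose in cytoplasm, by 2.69 and 1.51.

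Receptors, binding proteins and inhibitors were mixed too. LTBP1, which stores latent TGF-beta in the matrix, read 21.9, 17.5 and 25.3 CPM against 2.69, 2.01 and 2.78 CPM (-3.11 ± 0.14, adjusted p = 1.6e-10). ACVR2A, an activin receptor, read 24.0, 20.6 and 23.6 CPM against 7.23, 7.92 and 8.20 CPM (-1.55 ± 0.08, adjusted p = 7.5e-10). The type I receptor TGFBR1 rose by 0.87, TGFBR2 was at -0.07 and did not pass the test, and the inhibitory SMAD6 and SMAD7 rose by 1.18 and 0.68.

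Mesenchymal and epithelial markers were counted apart. Of 12 mesenchymal genes tested 6 rose and none fell in nuclei, while up to 2 fell there under the alternatives. In cytoplasm 5 rose and 2 fell. VIM, the intermediate filament vimentin, read 2.25, 3.22 and 2.43 CPM against 33.9, 35.9 and 34.5 CPM (3.73 ± 0.12, adjusted p = 5.7e-12). VIM-AS1, which overlaps it on the other strand, rose by 3.09 ± 0.20, and whether the authors' quantification used the strand is not given in the sources used here. ZEB1, a repressor of epithelial genes, rose by 1.34, while SNAI1, TWIST1 and FN1 were at 0.00, -0.45 and -0.28 and did not pass the test.

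Of 35 junction and keratin genes 19 rose and 9 fell in nuclei, and 3 rose and 13 fell in cytoplasm. On the TPM scale the nuclear counts were 9 and 11. CDH1, or E-cadherin, read 74.8, 74.2 and 146 CPM against 36.3, 31.4 and 36.8 CPM (-1.49 ± 0.24, adjusted p = 8.5e-05), with wild-type passage 29 above the other 2 samples. GRHL1, an epithelial transcription factor, fell by 1.17. KRT19 went from 289, 269 and 438 CPM to 742, 866 and 966 CPM (1.37 ± 0.15), and the desmosomal cadherin DSC3 rose by 1.30 ± 0.08.

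Adhesion and guidance genes held some of the widest single changes. SEMA3A, a secreted semaphorin, read 111, 121 and 122 CPM against 12.7, 12.9 and 11.3 CPM (chr7:83955777-84492724; -3.25 ± 0.15, adjusted p = 2.4e-10). ITGA1, the alpha chain of a collagen receptor, read 6.02, 7.91 and 10.4 CPM against 0.309, 0.288 and 0.324 CPM (-4.70 ± 0.24, adjusted p = 8.1e-10). ITGB4, part of hemidesmosomes, read 260, 238 and 471 CPM against 1756, 1640 and 1847 CPM (2.44 ± 0.21, adjusted p = 1.7e-07). COL13A1, a transmembrane collagen, read 4.89, 4.64 and 8.72 CPM against 109, 113 and 109 CPM (4.195 ± 0.164, adjusted p = 5.0e-11).

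The lists these genes come from were mixed. Of 25 collagen genes 8 rose and 5 fell, of 29 laminin and integrin genes 10 rose and 5 fell, and of 49 axon guidance genes 22 rose and 7 fell. On a TPM scale the last 2 medians turned from 0.29 and 0.17 to -0.05 and -0.01.

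Glycolysis and hypoxia genes were examined next. Of 28 glycolysis and hypoxia genes 22 rose and 1 fell (median 0.64), and 5 rose and 3 fell in cytoplasm (median 0.06). For 14 of 28 the nuclear difference was higher by the interaction test and for none lower. SLC2A3, the glucose transporter GLUT3, read 3.24, 3.05 and 6.16 CPM against 58.5, 49.4 and 45.5 CPM (3.64 ± 0.34, adjusted p = 2.9e-07) and rose by 3.06 in cytoplasm, with no call on the difference between fractions (interaction adjusted p = 0.32). PDK1, a kinase that inhibits pyruvate dehydrogenase, was the 1 that fell, from 50.9, 51.5 and 69.9 CPM to 21.4, 19.8 and 19.3 CPM (-1.51 ± 0.10, adjusted p = 1.3e-08).

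Of 18 targets of the antioxidant factor NRF2, 12 rose and 4 fell. GCLC, which limits glutathione synthesis, fell by 1.33 ± 0.08. Of 255 solute carrier genes 97 rose (38.0%) and 58 fell (22.75%), near the shares of all coding genes (38.5% and 24.1%). On the TPM scale 50 rose and 73 fell. SLC1A3, a glutamate transporter, dropped from 28.4, 24.1 and 17.8 CPM to 0.119, 0.209 and 0.135 CPM (-7.23 ± 0.26, adjusted p = 2.0e-11).

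Growth genes gave smaller values. Of 32 mitosis genes 21 rose and 1 fell (median 0.40), but on the TPM scale 9 rose and 2 fell. AURKA and ANLN led them at 0.83 and 0.82. Of 54 replication-dependent histone genes 35 rose and none fell in nuclei (median 0.60), and none rose and 3 fell in cytoplasm. Histone genes are near copies of each other, and 41 of the 48 with a ratio lay in the most cytoplasmic class. TK1, thymidine kinase, rose by 1.14 ± 0.07 among 36 DNA replication genes. Of these 36, 13 rose (36.1%) and 7 fell (19.4%), near the shares of all coding genes (38.5% and 24.1%). On the TPM scale 2 rose and 12 fell. In cytoplasm 1 of the 36 rose and 14 fell (median -0.28), where 16.2% of all genes were higher and 15% lower. For 10 of the 36 the nuclear difference was higher by the interaction test, which called 10.3% of all genes in that direction.

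CCND1, or cyclin D1, read 487, 451 and 421 CPM against 1180, 1301 and 1408 CPM (1.52 ± 0.10, adjusted p = 9.4e-09) and rose by 1.02 in cytoplasm. FOSL1, an AP-1 subunit downstream of ERK, rose by 1.35 ± 0.14, while the ERK feedback inhibitors SPRY1 and SPRY2 fell by 0.70 and 0.67. Of 82 ribosomal protein genes 56 rose and 7 fell, with a median of 0.27 and single changes between -0.69 (RPL26) and 0.56 (RPS21). On the TPM scale 21 rose and 8 fell. Of the 81 ribosomal protein genes with a ratio, 74 lay in the most cytoplasmic class, where 66.8% of genes rose (median 0.41). Their mean share of all nuclear reads was 2.686% in wild type and 2.695% in knockout (exact permutation test, p = 0.9). Their summed CPM, which is scaled to the effective library size, was 23280 to 24800 in wild type and 27830 to 29820 in knockout. The part of this scaling in the counts of the lists was not tested.

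HOX genes encode factors of the body axis and lie in clusters. Of 30 HOX genes 19 rose and 3 fell (median 0.56), and 14 rose and 2 fell in cytoplasm. HOXB8 read 16.8, 16.6 and 14.4 CPM against 50.9, 56.9 and 54.3 CPM (1.76 ± 0.08, adjusted p = 1.6e-10), and HOXB9 read 19.04, 19.8 and 34.02 CPM against 76.5, 70.9 and 76.8 CPM (1.63 ± 0.16). The genes that fell were HOXD3, HOXD4 and HOXD8, all of the HOXD cluster, by 1.53, 1.32 and 1.16.

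SOX4, a factor of progenitor cells, had one of the deepest falls among abundant genes, from 326, 312 and 234 CPM to 24.3, 28.6 and 28.7 CPM (chr6:21593751-21598619; -3.42 ± 0.14, adjusted p = 6.7e-11). KLF2 rose from 22.3, 18.4 and 38.5 CPM to 125, 101 and 127 CPM (2.17 ± 0.20). Of 169 zinc finger genes on chromosome 19, which encode mostly KRAB repressors, 15 rose and 94 fell (median -0.27), and in cytoplasm 4 rose and 70 fell (median -0.31). ZNF426 read 7.67, 9.08 and 7.86 CPM against 0.618, 0.235 and 0.567 CPM (-4.10 ± 0.22, adjusted p = 1.3e-09), and ZNF550 fell by 3.50.

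The proteins that act with Argonaute were examined next. Of 26 genes of TNRC6 proteins, deadenylases and decapping factors 14 rose and 4 fell (median 0.23). TNRC6B read 294, 292 and 286 CPM against 392, 386 and 435 CPM (0.48 ± 0.07, adjusted p = 2.3e-05), and TNRC6C rose by 0.52 ± 0.06. On the log2(TPM + 1) scale none rose and 8 fell (median -0.12, where all genes have -0.16), and neither TNRC6 call held. Of 18 microRNA processing genes 3 rose and 3 fell (none and 9 on the TPM scale), with KHSRP at 0.52 and TUT4, which adds uridines to let-7 precursors, at -0.45. The KHSRP call was lost on the TPM scale (adjusted p = 0.054). DICER1 was at 0.20 and did not pass the test.

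Genes that microRNAs are known or predicted to target were also examined. Let-7 is a family with many well-studied targets. Of 21 such genes 8 rose (38.1%) and 6 fell (28.6%), near the shares of all coding genes (38.5% and 24.1%), with a median of 0.27. On the TPM scale 4 rose and 7 fell (median -0.03). IGF2BP1, an RNA-binding protein of growing cells, read 0.915, 0.920 and 1.03 CPM against 2.24, 2.01 and 2.48 CPM (1.23 ± 0.23, adjusted p = 0.00028). NRAS rose by 0.72 ± 0.08. E2F5 read 13.3, 16.8 and 13.1 CPM against 5.92, 3.84 and 5.67 CPM (-1.48 ± 0.14, adjusted p = 3.6e-07), and LIN28B fell by 1.13.

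Coding genes were further sorted by seed matches for 15 microRNA families in the 3′ UTR of their most abundant transcript, counting a match to microRNA bases 2 to 8. The mature sequences below (RefSeq, GRCh38) are the families with the largest differences in either direction and let-7, with the seed in capitals.
hsa-miR-24-3p: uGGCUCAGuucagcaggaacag
hsa-miR-16-5p: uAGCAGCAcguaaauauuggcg
hsa-miR-125b-5p: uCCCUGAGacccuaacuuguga
hsa-let-7a-5p: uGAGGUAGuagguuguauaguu
hsa-miR-21-5p: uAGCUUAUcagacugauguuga
hsa-miR-30a-5p: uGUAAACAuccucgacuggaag
Their loci are MIR24-1 (chr9:95086064-95086085), MIR16-2 (chr3:160404754-160404775), MIR125B1 (chr11:122099809-122099830), MIRLET7A1 (chr9:94175962-94175983), MIR21 (chr17:59841273-59841294) and MIR30A (chr6:71403595-71403616). Most of these microRNAs have further copies or relatives elsewhere.

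Differences between genes with and without a match were small. Over 13083 coding genes with a 3′ UTR, 39.2% rose and 24.1% fell. Averaged over 3 classes of UTR length, the 2082 genes with a miR-24 match had a median 0.10 above genes without (0.09 to 0.10 in the 3 knockout samples), the 2883 with a miR-15/16 match 0.08 above, and the 1948 with a miR-125 match 0.08 above. The 2061 genes with a miR-30 match lay 0.10 below and the 1085 with a miR-21 match 0.09 below. For let-7 (1294 genes) the difference was -0.02. Across the 15 families the differences ran from -0.10 to 0.10, and those of cytoplasmic RNA from -0.06 to 0.08. With matches of bases 2 to 8 followed by an A alone, let-7 was at -0.14, miR-24 at 0.11, miR-125 at 0.03, miR-15 at 0.01 and miR-29 at -0.10 (0.02 with all matches), and 11 of the 15 families moved by more than the SD over the knockout samples. In the longest annotated 3′ UTRs 9 of the 15 moved, with miR-21 at -0.16 and miR-30 at -0.06. A seed match is a description of the sequence, and which of these microRNAs the cells hold was not measured in these samples.

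**Figure D4:**
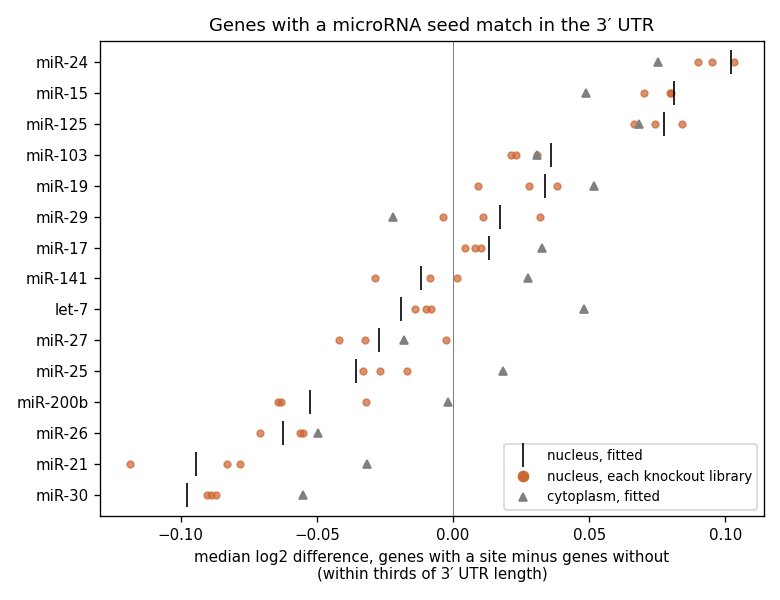
Median log2 fold change of genes with a seed match minus genes without (x axis), averaged over 3 classes of 3′ UTR length, for 15 microRNA families (y axis), fitted in nuclei (black bars), in each of the 3 knockout samples (orange) and fitted in cytoplasm (grey). miR-24, miR-15 and miR-125 lie 0.08 to 0.10 above 0, miR-21 and miR-30 about 0.09 to 0.10 below, and let-7 near 0.

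One stretch of the genome stood out. In windows of 50 neighbouring tested genes, the last 7 of the 13 windows of chromosome 8 (chr8:73052178-144950888, GRCh38) had medians of -1.14 to -0.47, a run of neighbouring windows below -0.4 that was picked out after the values were seen. Of the 350 tested genes in this block 262 fell (74.9%) and 11 rose, with a median of -0.76, while of the other 303 tested genes of chromosome 8, 88 fell and 95 rose (median -0.02). Windows on other chromosomes had medians of -0.92 to 0.54, with some also below -0.4. In cytoplasm 215 of 342 block genes fell and 2 rose (median -0.63).

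The block was lower in both lines with more than 1 Argonaute gene knocked out. On the log2(CPM + 0.5) scale against the wild-type mean, the block median was -0.61 in each of the 3 AGO1/2/3 knockout samples and -0.62 to -0.58 in the 3 AGO1/2 knockout samples. It was -0.05 to -0.03 in the AGO1 knockout and -0.10 to -0.08 in the AGO2 knockout samples. AGO2 lies in this block, and so do E2F5, STK3, RPL7, ENY2, HSF1, ZNF704, MAL2, GRHL2 and PAG1. All 10 of these named genes fell, although the ENY2 call was lost on length-scaled counts (adjusted p = 0.22) and the HSF1 call with no filter on low counts (0.39) and without wild-type passage 27 (0.10) or 28 (0.057) or knockout passage 11 (0.050). The number of copies of this stretch in each line was not tested.

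**Figure D5:**
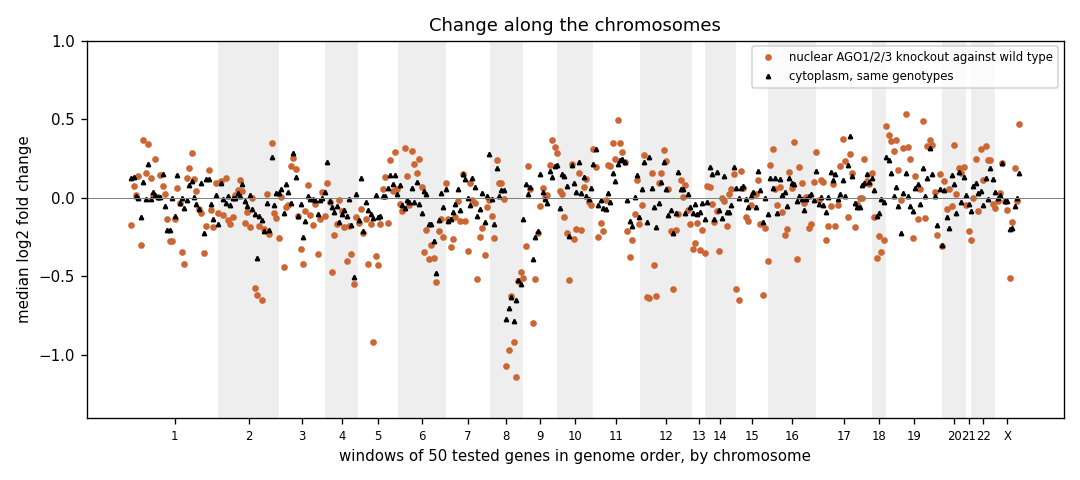
Median log2 fold change of AGO1/2/3 knockout against wild type in windows of 50 tested genes (y axis) in genome order by chromosome (x axis), in nuclei (orange) and cytoplasm (black). The last 7 windows of chromosome 8 lie at -1.14 to -0.47 in nuclei, and cytoplasmic medians there are low as well.

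The largest single losses were near complete. ANXA10, an annexin, read 15.7, 15.3 and 22.8 CPM in wild type and had no read in any knockout sample, at least 231-fold lower at a floor of 3 reads per sample. LRP1B, a large endocytic receptor, read 8.31, 9.45 and 12.3 CPM and had no read in knockout, at least 128.5-fold lower. ANK3, or ankyrin G, had 3010 reads over the wild-type samples and 2 over the knockout samples, 2368-fold lower (95% counting interval 655 to 19560, exact). TTN, the giant muscle protein titin, read 103, 115 and 105 CPM against 0.428, 0.131 and 0.27 CPM (-8.57 ± 0.18, adjusted p = 7.6e-14).

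GRHL2, which keeps epithelial genes on, read 9.22, 10.8 and 11.8 CPM against 0.0713, 0.34 and 0.216 CPM (-5.66 ± 0.37, adjusted p = 9.4e-09), and ZNF704 fell by 7.37. In the other direction MYBPH, a muscle filament protein, had 4 reads over the wild-type samples and 1499 over the knockout samples, 238-fold higher (95% counting interval 92.8 to 875). DCLK1, a microtubule kinase of tuft cells and neurons, read 1.90, 1.30 and 1.62 CPM against 56.6, 53.8 and 57.6 CPM (5.11 ± 0.18, adjusted p = 1.5e-11). Intervals and floors cover counting error.

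The same genotypes were compared in cytoplasm, in 6 other samples of the same passages. There 31.2% of genes were called (16.2% higher, 15% lower), and 16.9% of 18916 genes had a nuclear difference unlike the cytoplasmic one by the interaction test. With passage as a replicate block that count rose from 3203 to 6251, with 3184 of the 3203 among them. For some of the largest changes the values of both fractions stand side by side. DCLK1 differed by 5.11 in nuclei and 5.18 in cytoplasm, SOX4 by -3.42 and -4.13, VIM by 3.73 and 3.36, and SLC1A3 by -7.23 and -8.33. AGO1 fell less in nuclei (-1.71) than in cytoplasm (-3.27; interaction 1.56, adjusted p = 0.00019). AGO3 fell in nuclei and rose in cytoplasm (0.35, adjusted p = 0.016; interaction -0.66, adjusted p = 0.0089), and AGO2 was at 0.12 in cytoplasm (adjusted p = 0.36).

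The AGO1/2 knockout, a further line with AGO3 intact, was set beside the triple knockout in nuclei. Both were measured against the same 3 wild-type samples, so their fold changes share that error. INSIG1 differed from wild type by 3.44 in the triple and 3.09 in the double knockout, VIM by 3.73 and 3.98, TGFB2 by 2.94 and 2.88, LTBP1 by -3.11 and -3.07, and FIRRE by -1.75 and -2.11. Compared directly, 3.48% of genes (659) differed between the lines.

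That count rested on single samples. It fell to 31 without AGO1/2 passage 9 or 10, was 3153 without AGO1/2 passage 11, and was 33, 83 and 280 without triple-knockout passages 11, 12 and 14. DCLK1 had the smallest adjusted p of the named genes, 6.29 above wild type in the double and 5.11 in the triple knockout (adjusted p of the difference 0.00059). AGO3 did not pass the test between them (adjusted p = 0.88).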

How the data were processed

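Ribosome-depleted stranded total RNA libraries of nuclear and cytoplasmic fractions were sequenced in pairs. Per the labels, the authors used STAR and then Salmon on the hg38 build (versions 2.5.3a and 0.11.0 in the submitters' processing notes, which differ from those of the study's methods). The deposited tables give estimated counts and TPM per transcript for each sample. Estimated counts were summed per gene through GENCODE 44 transcript identifiers without version (196040 of 200401 matched; 2.40% to 4.01% of reads were left out) and rounded. The authors' annotation release could not be matched, so GENCODE 44 coordinates on GRCh38 are used. Y-linked genes, XIST and a few further genes are not reported here by name.

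Genes were filtered with filterByExpr (minimum count 10), normalised by TMM and tested with the quasi-likelihood test of edgeR 4.0.16 over 15 nuclear samples, with Benjamini-Hochberg adjustment at 0.05. The interaction of genotype and fraction was fitted over 12 samples. limma 3.58.1 and DESeq2 1.42.0 served as alternatives. The tests were also run on simulated counts in which few genes changed, equally up and down. In the data 58.6% of genes were called, so that simulation does not check the calls under a change this wide. Composition used exact two-sided permutation tests.

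Named genes were the Argonaute genes, the called gene with the largest rise and fall in each of 47 lists (2 each way with 20 or more tested) with separate groups and at least 1 CPM, and the 10 protein-coding (at least 10 CPM) and 4 long noncoding genes (at least 5 CPM) with the largest change each way. Others are list members chosen after their values were seen. The members and lists were chosen with earlier results of these data known. Replicate counts differed by more than sampling noise within every group (chi-square per gene 4.83 or more), so none was merged. Nuclear and cytoplasmic samples share passage numbers. Deviations of same-numbered samples correlated at 0.464, 0.465 and 0.743 in wild type (-0.607 to 0.503 for unlike numbers) and at -0.001, 0.222 and 0.09 in knockout (-0.173 to 0.077). Not every pair was above 0.1, so the interaction was fitted without a block, and the blocked count is given beside it. Seed matches were counted in GENCODE 44 3′ UTRs of at least 50 bases.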

Additional observations from a re-analysis of the deposited data

Results flagged for a closer look

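For 34 of the 152 named genes the nuclear difference between AGO1/2/3 knockout and wild type was unlike the cytoplasmic one by the interaction test of edgeR (adjusted p at or under 0.05, beside 16.9% of all genes). The values are nuclear minus cytoplasmic log2 fold changes. The rule that named these genes used their nuclear change, which is also a part of this difference. The values of 32 of them are given. No explanation was tested.

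Among Argonaute and microRNA genes, the difference was 1.56 for AGO1, -0.57 for AGO2, -0.66 for AGO3, 0.60 for KHSRP, -0.48 for TUT4, -1.35 for MIR924HG and 0.41 for NRAS. For RNA-handling and nuclear RNA genes it was -0.79 for FIRRE, 0.57 for THOC6, 0.66 for ALYREF and 0.78 for HNRNPK. For genes of protein secretion, folding and antigen presentation it was 0.84 for P4HB, 0.99 for CALR, 0.86 for HSP90B1, 0.68 for DNAJC3, -0.64 for EDEM1, 0.71 for HSPB1 and 0.61 for TAPBP.

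For growth, signalling and metabolic genes it was -0.50 for ZMAT3, -0.58 for FBXW7, 0.76 for TK1, 0.49 for CCND1, -0.42 for MAML2, 0.72 for JAG1, -0.74 for GCLC, 0.78 for DSC3 and 2.55 for GALNT3. For SOX18 it was 1.17, for SOX4 0.70, for the histone gene H3C6 0.64, for MAGEB2 0.78 and for the long noncoding ENSG00000260711 -1.59.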

How the results depend on the processing

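The count of genes changed in knockout nuclei (11083) stayed within 1.5 times under every alternative, from 10003 to 11516 when 1 sample was left out, but its split moved: with limma on log2(TPM + 1), 2704 rose and 7483 fell, and on log2(TPM + 0.1), 2685 and 7378, beside 5504 and 5579. The median of all genes was then -0.16 and -0.25. Those TPM values had no TMM scaling. On length-scaled counts with TMM, 5464 rose and 4862 fell (median 0.0009). With the 2 groups alone in the fit, and so without the spread of the other lines, 9653 genes were called. Same-numbered samples deviated together in only 1 of 3 knockout pairs. In wild type they did, but passages 27 and 28 correlated as much across numbers (0.503 and 0.497, beside 0.464 and 0.465). The interaction count (3203, with 1947 higher and 1256 lower) was 6251 with culture as a replicate block. It was 1865 to 4672 when 1 sample was left out. The lowest was without nuclear wild-type passage 28 and the highest without cytoplasmic wild-type passage 29. The interaction count was 2029 without nuclear knockout passage 12. Its split was 1769 and 1873 with DESeq2, 1243 and 1525 with RLE size factors, 1079 and 1832 at a mean count of at least 50, and 1827 and 2767 on log2(TPM + 1). The count between triple and double knockout (659) was 1967 with DESeq2, 1272 with no filter, 242 on length-scaled counts, 2297 and 2178 with limma on the 2 TPM scales, 113 with the 2 groups alone and 31 to 3153 when 1 sample was left out. The cause was not tested for any of these. EXOSC10 reversed on the TPM scales (-0.083 and -0.085, from 0.25). Of 2263 alternative values of the 152 named genes, 65 in 23 genes changed their call or direction. Fewer genes of the most cytoplasmic class rose on log2(TPM + 1), 1092 against 1957. Low wild-type depth limits what can be seen in weakly expressed genes.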
